A study of Homo sapiens with 6 samples.

Results

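The genes described here are 9 genes of cholangiocyte identity and secretion, chosen by symbol from the 58735 genes of a count table. They are the transcription factors SOX9, FOXA2, GATA6 and ONECUT2, the surface and secreted markers EPCAM and SPP1, and the secretory genes CFTR, SLC4A2 and ANXA4. They were measured by RNA sequencing in HUCCT1, an established human cholangiocarcinoma line whose tissue is labelled bile duct. Of the 6 libraries, 3 are labelled siC1QBP, for small interfering RNA directed at C1QBP, and 3 are labelled siNC, the control siRNA with cell type wt. All libraries share this 1 cell line, and the sources used here do not give the siRNA sequences, dose or time after transfection. The study concerns C1QBP, a mostly mitochondrial protein, in the growth of cholangiocarcinoma cells, and no label names biliary identity as a question.

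Cholangiocytes line the bile ducts and modify bile by secreting chloride and bicarbonate. In the textbook account, the channel CFTR lets chloride out at the apical membrane after cAMP signalling, and the anion exchanger encoded by SLC4A2 (AE2) takes chloride back in exchange for bicarbonate. SOX9 marks the ductal lineage early in liver development, FOXA2 and GATA6 are endoderm factors, and ONECUT2 acts with ONECUT1 in duct development. EPCAM is an epithelial adhesion protein of ducts and of many carcinomas, SPP1 encodes the secreted protein osteopontin, and ANXA4 encodes an annexin that binds membranes when calcium rises.

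CFTR and ANXA4 rose in the siC1QBP libraries and GATA6 fell, while SOX9, FOXA2, ONECUT2, EPCAM and SLC4A2 did not pass the test and SPP1 was too low to be tested. A gene was called when its adjusted p in the quasi-likelihood test of edgeR was under 0.05, with adjustment over all 15530 genes that passed the low-count filter. The 3 calls among the 8 tested genes stand beside 14.3% of all tested genes called, 6.47% higher and 7.84% lower. The groups did not overlap for 6 of the 8 genes, beside 32.6% of all tested genes. The median log2 fold change (siC1QBP over siNC) was 0.05 over the 8 genes and 0.00255 over all tested genes.

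Promoter windows are shown for CFTR, GATA6 and ANXA4 because these are the genes that were called. RefSeq windows (GRCh38.p14, 250 bases before to 50 after a start site) matched 6 of the 9 genes: GATA6, ONECUT2, SPP1, CFTR, SLC4A2 and ANXA4. Where a gene had several windows, the one nearest the start of its principal GENCODE transcript was taken. The windows are chr7:117479775-117480074 for CFTR, chr18:22169339-22169638 for GATA6 and chr2:69741884-69742183 for ANXA4, all on the plus strand. They are written 5′ to 3′, and capitals mark matches to the motifs described after them.
CFTR: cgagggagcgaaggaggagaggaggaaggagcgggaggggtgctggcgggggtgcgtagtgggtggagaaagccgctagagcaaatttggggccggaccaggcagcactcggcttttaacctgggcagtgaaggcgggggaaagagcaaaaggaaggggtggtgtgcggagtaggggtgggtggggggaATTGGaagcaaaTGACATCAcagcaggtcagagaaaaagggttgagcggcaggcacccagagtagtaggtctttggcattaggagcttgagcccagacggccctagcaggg
GATA6: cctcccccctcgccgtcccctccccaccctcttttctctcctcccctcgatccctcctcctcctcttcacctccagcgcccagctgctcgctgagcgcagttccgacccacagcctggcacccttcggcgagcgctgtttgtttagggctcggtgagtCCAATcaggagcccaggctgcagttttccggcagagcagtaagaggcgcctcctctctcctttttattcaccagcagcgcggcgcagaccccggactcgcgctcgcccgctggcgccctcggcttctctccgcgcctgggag
ANXA4: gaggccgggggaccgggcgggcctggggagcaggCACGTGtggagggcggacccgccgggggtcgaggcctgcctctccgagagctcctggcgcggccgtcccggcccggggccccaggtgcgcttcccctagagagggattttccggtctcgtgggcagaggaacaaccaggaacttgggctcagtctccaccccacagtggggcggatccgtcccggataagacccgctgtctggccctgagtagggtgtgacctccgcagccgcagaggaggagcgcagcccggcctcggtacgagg

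The CFTR window holds a CCAAT box on the opposite strand (ATTGG as printed) at position -61 from the start site, and the cAMP response element variant TGACATCA at position -49. The GATA6 window holds a CCAAT box at position -92, and the ANXA4 window holds an E-box, CACGTG, at position -216. These positions count from the RefSeq start sites. Those sites lie downstream of the principal GENCODE starts, by 62 bases for CFTR, 146 for GATA6 and 160 for ANXA4. The CFTR and GATA6 matches therefore lie downstream of the principal starts, and the ANXA4 match lies upstream. GC content was 60.7% in the CFTR window, 66.7% in that of GATA6 and 72.0% in that of ANXA4, beside a median of 58.7% over all windows. Of the 35116 windows of this length in the RefSeq table, 34.6% held CCAAT, 2.61% TGACATCA and 7.26% CACGTG on either strand.

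Letters for factors of the biliary lineage were searched on both strands, and none of them lay in the 3 printed windows, which says only that these letters are not there. For GATA factors the search took AGATAA as well as the related word TGATAA together with the further words AGATAG and lastly also TGATAG, and 25% of all windows held at least 1 of them. For FOXA factors it took TGTTTAC as well as the related word TGTTTGC together with the further word TATTTAC, held by 9.57% of windows. For ONECUT factors it took ATTGAT as well as the related word ATCGAT, held by 6.96%. For SOX factors it took AACAAT, held by 10.1%, and for HNF1 factors GTTAAT, held by 6.88%. On either strand, GTTAAT matched in the SPP1 window and in some SLC4A2 windows, which are not printed. The cAMP response element (TGACGTCA, in 1.85% of windows) and the TATA box (TATAAA, in 11.5%) were absent from the 3 windows too. CCAAT and TGACATCA were added to the search after these windows had been read. A match is a description of the letters, not a site.

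The siRNA target was lower in every siC1QBP library. C1QBP (ENSG00000108561) held 59.08, 57.64 and 60.01 CPM after siC1QBP and 174.9, 181.4 and 184.6 CPM in the controls. The means were 58.9 ± 1.19 and 180 ± 4.94 CPM (SD, n = 3), a log2 fold change of -1.61 (SE 0.05; edgeR adjusted p = 1.39e-12). CPM are counts scaled to library size, here after TMM scaling (trimmed mean of M-values), which corrects for composition. Total counts were 17122252 to 18847340 in siC1QBP and 18313264 to 20416243 in siNC libraries. Replicate 1 stood apart in each group: its chi-square per degree of freedom against its partners was 6.66 and 6.77 in siC1QBP and 3.40 and 3.67 in siNC, against 2.09 and 2.13 between the other pair of each group. The labels do not say that replicates were separate cultures, so each p-value reflects only how far these 6 samples scatter, and that scatter may be technical.

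The line carried the keratins of bile duct epithelium and lacked some other cholangiocyte markers. Of 12 such markers, 6 of them among the 9 genes, 10 could be tested. KRT7 and KRT19 stood at 3766 ± 74.5 and 1888 ± 113 CPM in siNC libraries (SD, n = 3). The secretin receptor gene SCTR had 1 count in 1 siNC library and none elsewhere, and the water channel gene AQP1 stood at 1.60 ± 0.302 CPM after siC1QBP and 1.47 ± 0.194 CPM in siNC libraries. In bulk RNA, fewer cells of a type and less RNA per cell cannot be told apart.

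Most markers of other cells were at or near 0, but SERPINA1 and COL1A1 were not. Of 15 hepatocyte markers, 13 were under 1 CPM in every library, and APOC3 and TTR had no count. Their sum, nearly all of it SERPINA1, was 469 to 538 CPM after siC1QBP and 435 to 444 CPM in siNC libraries. The 9 fibroblast markers summed to 50.4 to 52.9 against 38.1 to 40.7 CPM, led by COL1A1 (38.3 ± 2.29 against 28.4 ± 2.11 CPM, SD, n = 3), while COL1A2, COL3A1, DCN and THY1 were under 1 CPM in every library. Both passed the test used for the 9 genes: COL1A1 rose by 0.43 in log2 (edgeR adjusted p = 0.0012) and SERPINA1 by 0.17 (edgeR adjusted p = 0.0296), the latter call being lost with any 1 siNC library left out (adjusted p = 0.083 to 0.115). Their part in the results was not tested. Endothelial, leukocyte, pancreatic and intestinal lists summed to at most 9.98 CPM in any library.

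**Figure D1:**
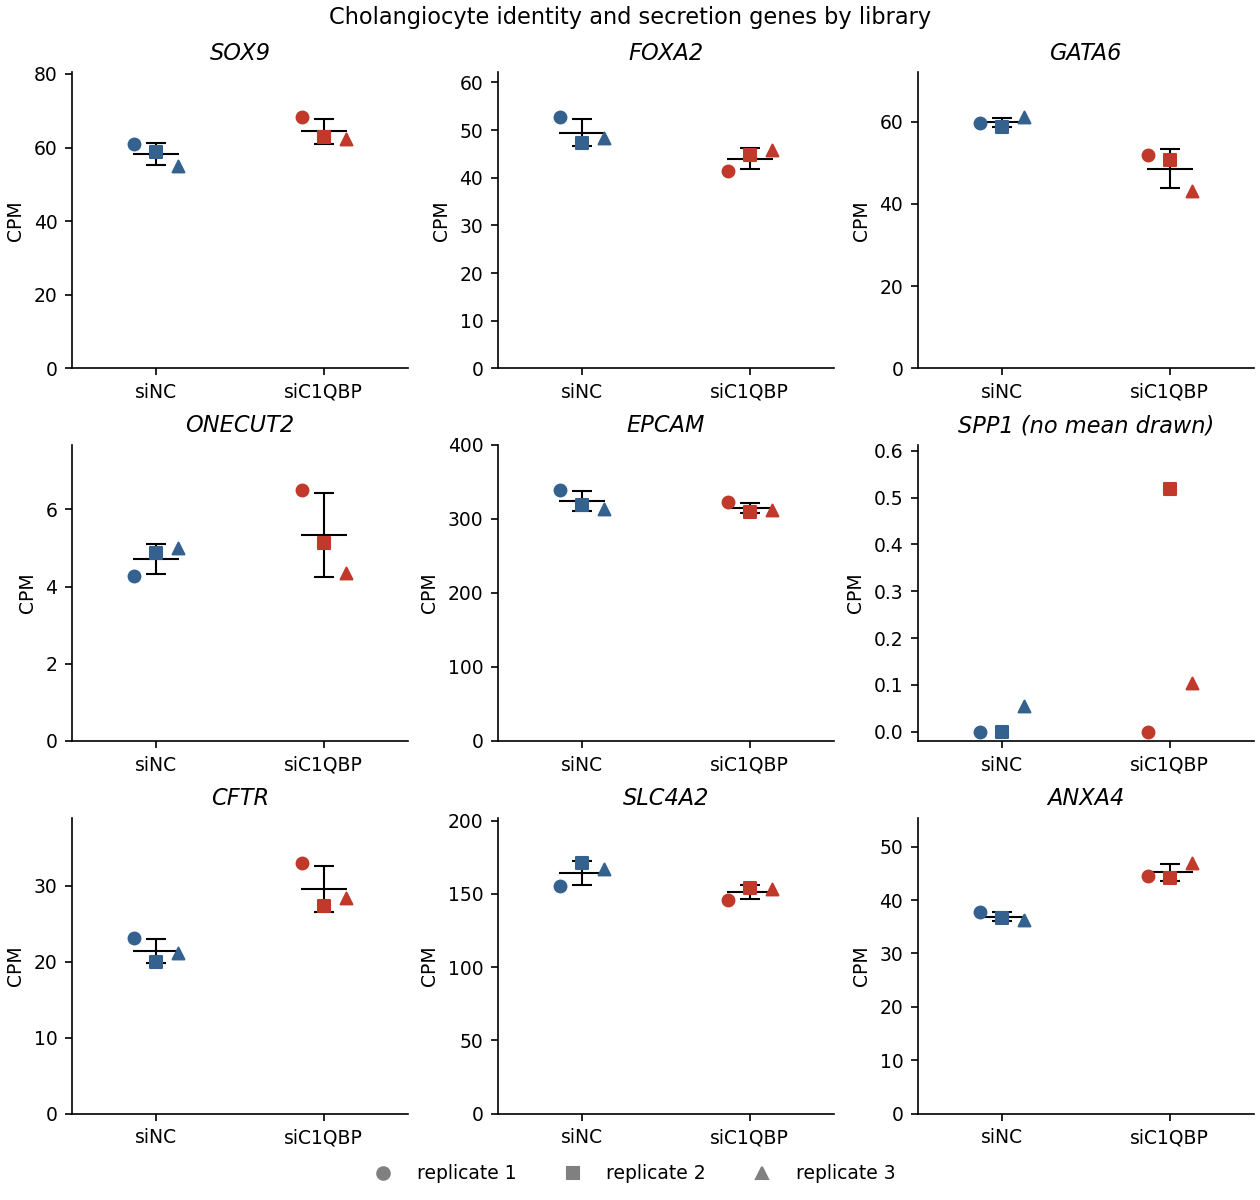
Level of each of the 9 genes in CPM (vertical axes) in the siNC and siC1QBP libraries, 1 point for each replicate, with the mean and SD (n = 3) except for SPP1. The groups of SOX9, FOXA2, GATA6, CFTR, SLC4A2 and ANXA4 do not overlap, whereas those of ONECUT2, EPCAM and SPP1 do.

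Among the transcription factors, GATA6 (ENSG00000141448, hg38 chr18:22169443-22202528, plus strand), a zinc finger factor of endoderm, fell. Its siC1QBP libraries held 51.9, 50.7 and 43.1 CPM and its siNC libraries 59.7, 58.7 and 61.0 CPM. Every siC1QBP library lay below every siNC library, and siC1QBP replicate 3 was the lowest of the 6. The mean was 48.6 ± 4.81 against 59.8 ± 1.16 CPM (SD, n = 3), or 81.2% of the siNC level. The log2 fold change was -0.30 (SE 0.07, 95% interval -0.43 to -0.17; edgeR adjusted p = 0.00692), and 79.4% of all tested genes had a smaller absolute change.

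Antisense genes share exon bases with GATA6, and whether counting used strand is not given in the sources used here, although the library kit keeps strand. GATA6-AS1 shares 240 of the 3945 exon bases of GATA6 and held 542 counts over all 6 libraries, with a log2 fold change of -0.26 (SE 0.16; edgeR adjusted p = 0.302). AC091588.3 shares 321 bases and held 69 counts.

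SOX9 (ENSG00000125398, chr17:72121020-72126420, plus strand), the ductal lineage factor, held 68.2, 62.8 and 62.2 CPM after siC1QBP and 60.9, 58.9 and 55.1 CPM in siNC libraries. The siC1QBP libraries were all above the siNC libraries, but the gap between the nearest ones was smaller than the spread within either group. Its log2 fold change of 0.14 (SE 0.06, 95% interval 0.03 to 0.26) did not pass (edgeR adjusted p = 0.122). SOX9-AS1 shares no exon base with it.

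FOXA2 (ENSG00000125798, chr20:22581005-22585455, minus strand), a pioneer factor of endoderm, held 41.5, 44.7 and 45.8 CPM after siC1QBP and 52.6, 47.3 and 48.3 CPM in siNC libraries. The groups did not overlap, with siC1QBP replicate 1 lowest and siNC replicate 1 highest. Its log2 fold change of -0.17 (SE 0.06, 95% interval -0.29 to -0.04) did not pass (edgeR adjusted p = 0.0965).

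ONECUT2 (ENSG00000119547, chr18:57435685-57491297, plus strand), a homeodomain factor, had the lowest level of the 4 factors, also per length, at 6.50, 5.13 and 4.36 CPM after siC1QBP and 4.28, 4.86 and 5.01 CPM in siNC libraries. The groups overlapped, and siC1QBP replicate 1 was the highest library. The log2 fold change was 0.17 (SE 0.17, 95% interval -0.17 to 0.51; edgeR adjusted p = 0.557), an interval that also holds changes as large as that of CFTR. Without siC1QBP replicate 1 it was 0.00.

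SOX9 and GATA6 stood at nearly equal counts in the control and apart after siC1QBP. For each 100 counts of GATA6 there were 131.4, 123.8 and 144.5 counts of SOX9 in siC1QBP and 102, 100.3 and 90.4 in siNC libraries, a ratio that needs no scaling between libraries. The means were 133.2 ± 10.5 and 97.6 ± 6.31 (SD, n = 3; two-sided exact permutation p = 0.1, with no smaller p possible for 3 against 3). FOXA2 for each 100 counts of GATA6 was 91.4 ± 13.6 against 82.7 ± 4.87 (SD, n = 3; exact permutation p = 0.5), with overlapping groups. The pairs were chosen after their values were seen.

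EPCAM (ENSG00000119888, chr2:47345158-47387601, plus strand) had the highest level of the 9 genes, also per length. It held 322.7, 309.8 and 312.0 CPM after siC1QBP and 339.0, 319.0 and 313.2 CPM in siNC libraries, and the groups overlapped. Its log2 fold change was -0.04 (SE 0.04, 95% interval -0.13 to 0.05; edgeR adjusted p = 0.593), the narrowest interval of the 8 tested genes, and 0.02 with the length trend removed. SPP1 (ENSG00000118785, chr4:87975650-87983426, plus strand) had 0, 9 and 2 counts in siC1QBP and 0, 0 and 1 count in siNC libraries. With 12 counts in all, 9 of them in 1 library, it was not tested, and a count of 0 allows up to 0.147 to 0.175 CPM at these depths (3 counts, counting error only).

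Among the secretory genes, CFTR (ENSG00000001626, chr7:117465784-117715971, plus strand), the apical chloride channel, rose. It held 33.0, 27.3 and 28.4 CPM after siC1QBP and 23.1, 19.9 and 21.1 CPM in siNC libraries. Every siC1QBP library lay above every siNC library, and replicate 1 was the highest of its group on both sides. The mean was 29.6 ± 3.01 against 21.4 ± 1.57 CPM (SD, n = 3). The log2 fold change was 0.47 (SE 0.09, 95% interval 0.30 to 0.64; edgeR adjusted p = 0.00192), the largest absolute change of the 8 tested genes, with 90.6% of all tested genes changing less in absolute terms. The log2 fold change was 0.38 without siC1QBP replicate 1. CTTNBP2 on the opposite strand shares 51 of the exon bases of CFTR and held 7 counts in all.

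ANXA4 (ENSG00000196975, chr2:69644425-69827100, plus strand), the calcium-dependent membrane-binding annexin, rose with little spread. It held 44.6, 44.1 and 47.0 CPM after siC1QBP and 37.8, 36.6 and 36.3 CPM in siNC libraries. The groups were well apart, at 45.2 ± 1.56 against 36.9 ± 0.812 CPM (SD, n = 3). The log2 fold change was 0.29 (SE 0.06, 95% interval 0.17 to 0.41; edgeR adjusted p = 0.00425).

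SLC4A2 (ENSG00000164889, chr7:151057210-151076527, plus strand), the chloride and bicarbonate exchanger, held 146.2, 154.3 and 153.7 CPM after siC1QBP and 155.3, 171.3 and 167.0 CPM in siNC libraries. The groups did not overlap, but siNC replicate 1 lay close to the highest siC1QBP library. Its log2 fold change of -0.12 (SE 0.05, 95% interval -0.22 to -0.03) did not pass (edgeR adjusted p = 0.109). It passed without siNC replicate 1, at -0.17 (edgeR adjusted p = 0.0406). CDK5 on the opposite strand shares 331 of its 7590 exon bases and held 2056 counts, with a log2 fold change of -0.14 (SE 0.09; edgeR adjusted p = 0.338). The antisense gene AC010973.2 shares 714 bases and held 36 counts over all libraries.

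The channel was also set against the exchanger. For each 100 counts of SLC4A2 there were 22.6, 17.7 and 18.5 counts of CFTR in siC1QBP and 14.9, 11.6 and 12.7 in siNC libraries. The groups did not overlap, at 19.6 ± 2.61 against 13.05 ± 1.64 (SD, n = 3; exact permutation p = 0.1). This pair was also chosen after its values were seen. Summed over all 9 genes the level was 703.5 ± 9.68 CPM after siC1QBP and 718.8 ± 12.9 CPM in the controls (SD, n = 3; exact permutation p = 0.2).

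**Figure D2:**
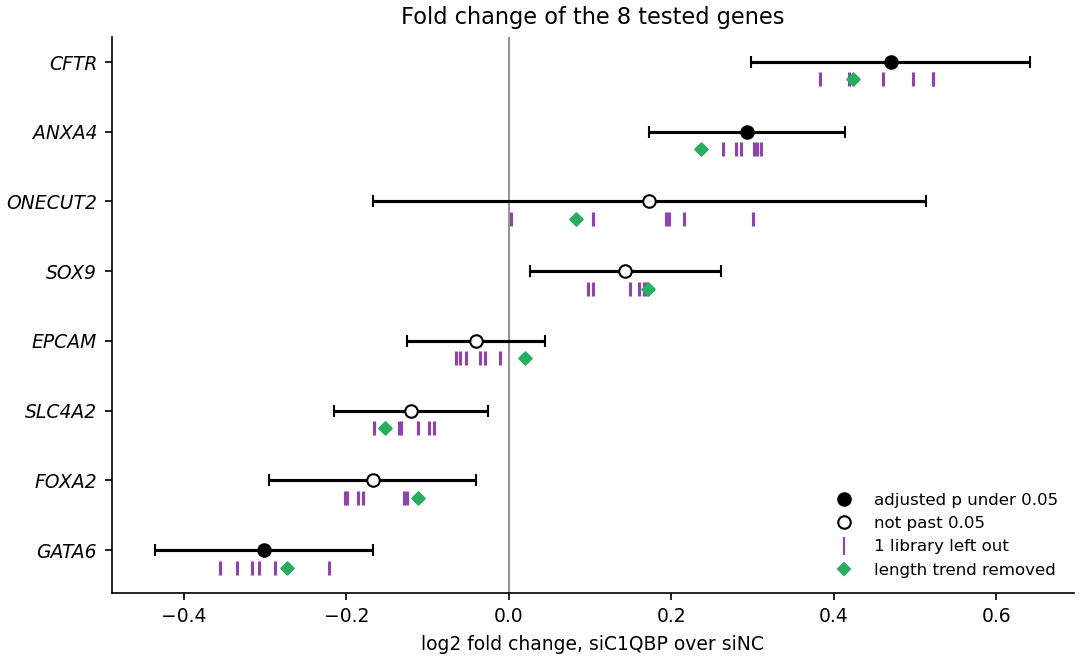
Log2 fold change of the 8 tested genes (siC1QBP over siNC, horizontal axis) with 95% intervals, filled where called; ticks are fits with 1 library left out and diamonds fits with the length trend removed. CFTR at 0.47 and ANXA4 at 0.29 lie above 0 and GATA6 at -0.30 below it, and these are the 3 called genes.

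Per kilobase of exon, the 9 genes covered a wide range in siNC libraries. EPCAM led at 128.5 ± 5.37 CPM per kb, followed by SLC4A2 at 21.7 ± 1.09, FOXA2 at 19.0 ± 1.09, GATA6 at 15.2 ± 0.293 and SOX9 at 14.8 ± 0.743 CPM per kb (SD, n = 3). ANXA4 at 3.34 ± 0.0735, CFTR at 2.29 ± 0.168 and ONECUT2 at 0.291 ± 0.0237 CPM per kb came next, and SPP1 was lowest. Of neighbours in this order, only GATA6 and SOX9 had overlapping ranges. In siC1QBP libraries SOX9, at 16.4 ± 0.840 CPM per kb, stood above GATA6, at 12.3 ± 1.22 CPM per kb.

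The level of ANXA4 per kilobase depends on the length used, but its rank in siNC libraries was 6 with either length. In siC1QBP libraries its rank was 6 with all exon bases and 5 with the principal transcript. The length in the file counts every annotated exon base, 11048 for ANXA4, whereas its principal transcript has 2799 bases. On the principal transcript its level was 13.2 ± 0.290 CPM per kb in siNC and 16.2 ± 0.556 CPM per kb after siC1QBP (SD, n = 3). The latter lies above GATA6, at 12.9 ± 1.28 CPM per kb on its own principal transcript. Lengths do not enter the fold changes.

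**Figure D3:**
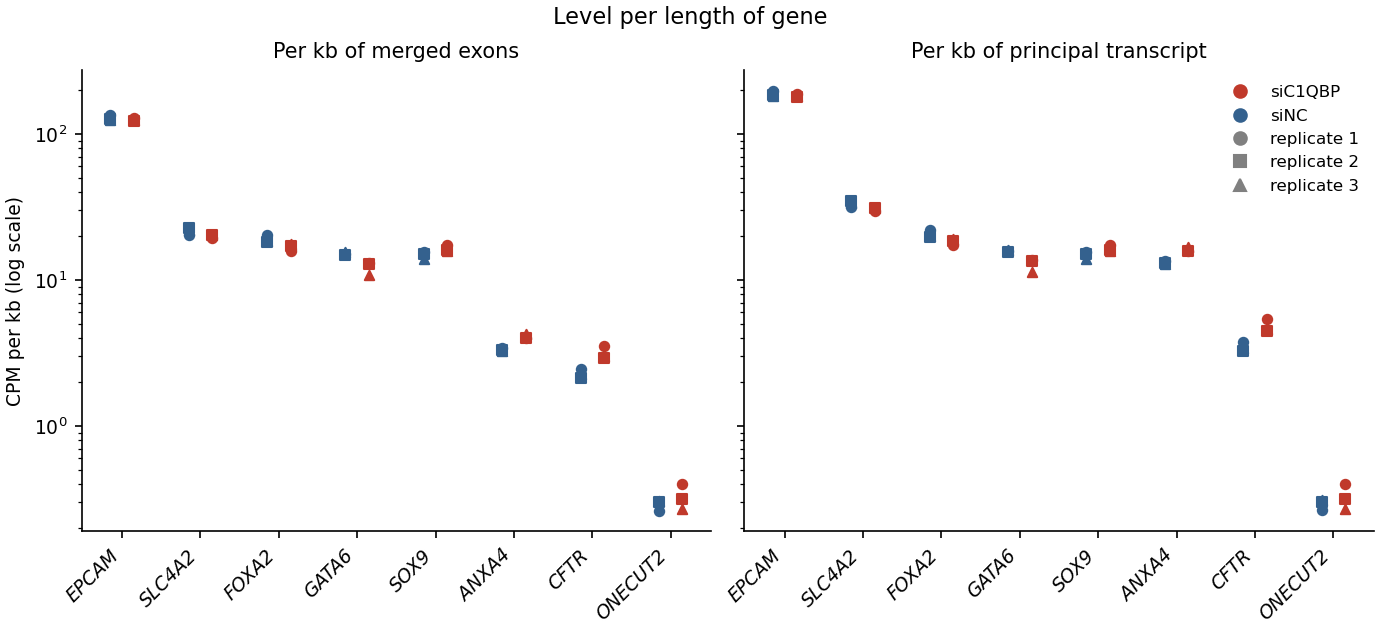
Level of 8 of the 9 genes in CPM per kb (log axis), 1 point for each library, for merged exons on the left and the principal transcript on the right. EPCAM lies highest and ONECUT2 lowest on both sides, and ANXA4 lies with SOX9 and GATA6 only on the right; SPP1, with libraries at 0, is not drawn.

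Calls moved with gene length in these libraries. With tested genes ranked by exon length and cut into 5 bins of 3106, in the longest bin 396 genes were higher and 99 lower, and in the shortest 90 were higher and 354 lower. CFTR, ANXA4 and ONECUT2 are in the longest bin, with GATA6 and SOX9 in the middle one. With the length trend removed, the log2 fold changes were 0.42 for CFTR (edgeR adjusted p = 0.00224), 0.24 for ANXA4 (adjusted p = 0.0144) and -0.27 for GATA6 (adjusted p = 0.0115), all still called. SLC4A2 then passed, at -0.15 (edgeR adjusted p = 0.0459). The siC1QBP libraries also had more genes with a count, 25187 ± 278 against 23614 ± 223, and a larger share of mitochondrially encoded counts, 4.43% ± 0.325 against 3.75% ± 0.119 (SD, n = 3; exact permutation p = 0.1 for each). With mitochondrially encoded genes left out, the log2 fold changes were 0.47, 0.29 and -0.30 for CFTR, ANXA4 and GATA6.

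Around these genes, 9 lists of related genes were counted, and each count is read beside the 14.3% of all tested genes called. That share is larger among well-expressed genes: in the fit limited to genes of at least 10 CPM, 2060 of 9839 were called. The lists were chosen with earlier results of these data known, so a share above that of all genes is description only. Of 20 biliary transcription factors besides the members, 16 were tested and 0 passed in edgeR, DESeq2 or limma-voom, with 1 at an unadjusted edgeR p under 0.05 and a median log2 fold change of 0.01. The epithelial factor EHF stood at 474 ± 34.0 CPM after siC1QBP and 451 ± 13.5 CPM in siNC libraries, and KLF5, a factor of epithelial growth, at 155 ± 5.35 and 151 ± 4.46 CPM (SD, n = 3). HNF4A, a hepatocyte factor, was low, at 0.996 and 1.40 CPM. HNF4A was named after its values were seen. With both replicates 1 left out, 1 factor of the list was higher.

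Of 18 biliary surface and keratin markers, 17 were tested: 5 rose, 3 fell and 9 did not pass, so that 47.1% were called beside 14.3% of all tested genes (6.47% higher, 7.84% lower). They went both ways, with a median log2 fold change of 0.01. Because the list was chosen with earlier results known, its share called is not independent of these data. KRT7, the keratin of duct epithelium, fell from 3683, 3826 and 3790 CPM in siNC to 3105, 3226 and 3122 CPM in siC1QBP libraries (log2 fold change -0.26, SE 0.04; edgeR adjusted p = 0.000214).

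Further called genes of this list are named after their values were seen. MUC1, a membrane mucin, rose from a low 8.15 to 12.4 CPM, or 0.61 in log2 (SE 0.11; edgeR adjusted p = 0.00136). CEACAM6, ANPEP and ICAM1, surface glycoproteins, rose by 0.46, 0.24 and 0.24 on the log2 scale. TNFRSF12A, the TWEAK receptor, and KRT19 fell by 0.39 and 0.19 on the log2 scale (edgeR adjusted p = 0.00193 and 0.00862). The call of KRT19 was lost without siNC replicate 2 or 3 (edgeR adjusted p = 0.0794 and 0.0705) and with the length trend removed (0.0716).

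Of 32 genes of biliary secretion and bicarbonate transport, 24 were tested: 2 rose, 2 fell and 20 did not pass (16.7% called, near the share of all genes), with a median log2 fold change of 0.08. SLC9A3R1 (NHERF1), the scaffold that holds CFTR at the apical membrane, fell from 129, 135 and 139 CPM in siNC to 104, 104 and 107 CPM in siC1QBP libraries. The change of -0.35 on the log2 scale, with an SE of 0.05, was opposite in sign to that of CFTR (edgeR adjusted p = 0.000151). SLC4A3 (AE3), an anion exchanger related to SLC4A2, rose from 13.7, 13.8 and 14.5 CPM to 18.7, 19.3 and 18.4 CPM (log2 fold change 0.42, SE 0.09; edgeR adjusted p = 0.00371). ANO1, a calcium-activated chloride channel, stood at 127 ± 7.58 and 124 ± 3.99 CPM (SD, n = 3). Its log2 fold change was 0.03 (edgeR adjusted p = 0.741), and it was named after its values were seen.

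Also named after their values were seen, PRKACA, a catalytic subunit of the cAMP-dependent kinase, fell by 0.29 on the log2 scale (edgeR adjusted p = 0.00545). CA12, a membrane carbonic anhydrase, rose by 0.57 (edgeR adjusted p = 0.0204), a call lost without siC1QBP replicate 1 or any 1 siNC library (adjusted p = 0.0511 to 0.0866). The counts of this list moved with single libraries: 5 rose and 4 fell without siC1QBP replicate 1, and 1 rose and 2 fell with any 1 siNC library left out. With upper-quartile scaling 4 rose.

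Of 18 genes of CFTR folding and trafficking, 17 were tested: 1 rose, 3 fell and 13 did not pass (23.5% called), with a median log2 fold change of -0.03. SLC9A3R2 (NHERF2), a second CFTR scaffold, stood at 143 ± 8.97 CPM after siC1QBP and 178 ± 13.3 CPM in the controls (SD, n = 3; log2 fold change -0.32, SE 0.06; edgeR adjusted p = 0.00176). RAB5A, a GTPase of early endosomes, rose by 0.26 (SE 0.05; edgeR adjusted p = 0.00361). STUB1 and RNF5, ubiquitin ligases that act on misfolded CFTR, fell by 0.36 and 0.28 and are named after their values were seen. Without siNC replicate 3 neither passed (edgeR adjusted p = 0.0669 and 0.13) and 1 gene of the list was lower. The call of RNF5 was also lost without siC1QBP replicate 2 or siNC replicate 2 (edgeR adjusted p = 0.0723 and 0.0681). With the length trend removed it was lost too (0.0515).

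Of 17 EPCAM partners and processing enzymes, all tested, 3 rose, 1 fell and 13 did not pass (23.5% called), with a median log2 fold change of -0.01. SPINT1, an inhibitor of membrane serine proteases, rose by 0.18 (SE 0.04; edgeR adjusted p = 0.00624) and its relative SPINT2 fell by 0.20 (SE 0.05; adjusted p = 0.0159). BACE1, a protease that cleaves membrane proteins, rose by 0.28 (SE 0.07; edgeR adjusted p = 0.00946). NCSTN, a gamma-secretase subunit named after its values were seen, rose by 0.17 (edgeR adjusted p = 0.0263). The call of NCSTN was lost without siC1QBP replicate 2 or 3 (edgeR adjusted p = 0.0662 and 0.105). It was also lost without siNC replicate 2 or 3 (0.129 and 0.0944) and with all genes of at least 1 count kept (0.0794). The call of SPINT2 was lost without siNC replicate 2 or 3 (edgeR adjusted p = 0.115 and 0.0746), whereas 3 genes were lower without siC1QBP replicate 1.

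**Figure D4:**
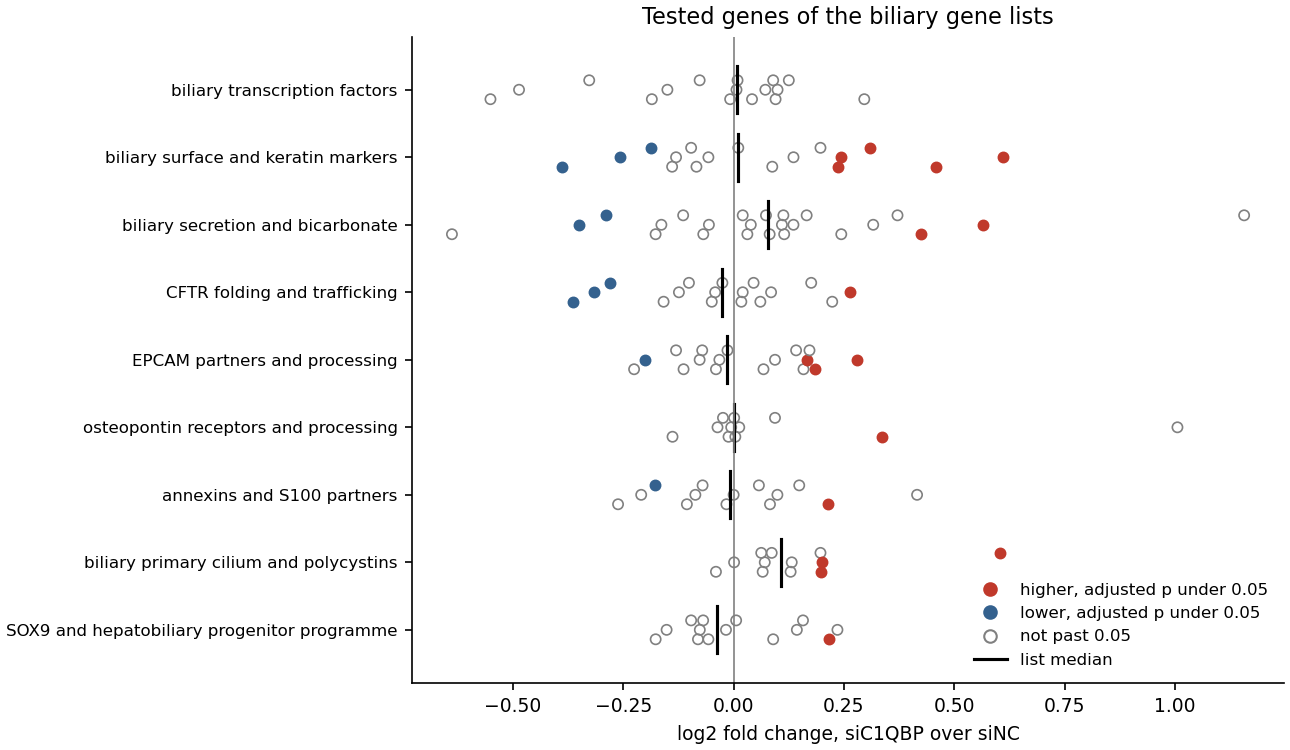
Log2 fold change (siC1QBP over siNC) of every tested gene in the 9 lists of biliary genes, 1 row for each list, with called genes filled and a bar at the list median. List medians lie between -0.04 and 0.11, and GANAB at 0.60 and MUC1 at 0.61 are the called genes farthest from 0.

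Around osteopontin, 11 of 14 receptor and processing genes were tested and 1 passed (9.09%). MMP7, a secreted protease of duct epithelium, went from 76.7 to 96.8 CPM and rose by 0.34 in log2 (SE 0.06; edgeR adjusted p = 0.00124). The receptor gene CD44 held levels of 1804 ± 67.6 and 1691 ± 15.5 CPM (SD, n = 3), and did not pass (edgeR adjusted p = 0.117); ITGAV stood at 283 and 282 CPM. CD44 and ITGAV were named after their values were seen.

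Of 15 annexins and S100 partners besides ANXA4, 14 were tested: 1 rose, 1 fell and 12 did not pass, which at 14.3% called equals the share of all genes. ANXA6 rose by 0.21 (SE 0.05; edgeR adjusted p = 0.00501). ANXA2, another membrane-binding annexin, stood at 2256 ± 37.2 against 2552 ± 14.2 CPM (SD, n = 3), a log2 fold change of -0.18 (SE 0.04; edgeR adjusted p = 0.00306), opposite in sign to ANXA4. Without siC1QBP replicate 1, 3 rose and 2 fell, and without siNC replicate 1, 1 rose and 3 fell.

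Of 12 genes of the primary cilium and polycystins, 3 rose and 9 did not pass (25% called), with a median log2 fold change of 0.11. GANAB, the catalytic subunit of glucosidase II of the endoplasmic reticulum, held 1018, 936 and 953 CPM after siC1QBP and 647, 637 and 631 CPM in siNC libraries (log2 fold change 0.60, SE 0.04; edgeR adjusted p = 1.22e-07). PRKCSH, the other subunit of glucosidase II, rose by 0.20 (SE 0.04; edgeR adjusted p = 0.00534; 0.0533 without siNC replicate 2). BICC1, an RNA-binding protein named after its values were seen, rose by 0.20 (edgeR adjusted p = 0.0259; 0.0618 without siC1QBP replicate 1). Of the list, 1 gene rose without siNC replicate 2. Both glucosidase II genes act in glycoprotein folding, and the polycystin genes PKD1 (51.4 and 52.8 CPM) and PKD2 (23.5 and 23.5 CPM) did not pass. PKD1 and PKD2 were named after their values were seen.

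Of 16 genes of the SOX9 and hepatobiliary progenitor programme, SOX9 itself included, 14 were tested and 1 rose (7.14% called), with a median log2 fold change of -0.04. NFIB, a nuclear factor I family member, rose by 0.22 (SE 0.06; edgeR adjusted p = 0.0156). It no longer passed when siNC replicate 3 was left out (edgeR adjusted p = 0.0764) or with the length trend removed (0.0749), which leaves 0 genes higher.

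The genes whose pattern over the 6 libraries was most like that of a called member were found among 10526 protein-coding genes. They were ranked by the root mean square difference of log2 CPM, each gene centred on its own mean. Nearest to GATA6 were CAMK2N1 (difference 0.0269) and CRLS1 (0.031), both lower. Nearest to CFTR were ARHGAP21 (0.0518) and ITGA1 (0.0552), both higher, and nearest to ANXA4 were PTPRE (0.0208) and BROX (0.0226), both higher. Because these genes were picked by likeness to a called member in the same 6 libraries, their direction follows from the choice. The call of CAMK2N1 was lost without siC1QBP replicate 3 or siNC replicate 3 (edgeR adjusted p = 0.0741 and 0.0588). It was also lost with the length trend removed (edgeR adjusted p = 0.0542). ITGA1, a collagen receptor subunit, held 167, 155 and 155 CPM after siC1QBP and 122, 110 and 110 CPM in siNC libraries.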

How the data were processed

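RNA sequencing counts of HUCCT1 cells were analysed as the authors deposited them: raw counts per gene, with gene lengths in another column per the file headers. Libraries were made from total RNA with a directional kit, per the labels' protocols, and mapped to hg38, per the submitters' processing notes. Aligner, counter and use of strand: not given in the sources used here. All 58735 gene IDs and positions matched GENCODE 29.

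Differences were fitted in edgeR 4.0.16 (quasi-likelihood test, R 4.3.3; TMM scaling, filterByExpr, Benjamini-Hochberg adjustment over all tested genes), on 3 siC1QBP and 3 siNC libraries with no covariate; the procedure was tested on simulated data. Intervals are normal approximations. Alternatives used DESeq2 1.42.0, limma 3.58.1, other scalings, filters and left-out libraries; leaving out both replicates 1 and using principal transcript lengths were chosen after seeing the data. The members and lists were chosen with earlier results of these data known. Named from each list were up to 2 called genes with the smallest p and 1 called in the other direction, or with no call the 2 most abundant; and for each called member the 2 protein-coding genes of most similar pattern, with a mean of at least 5 CPM. Promoter sequences are from RefSeq (GRCh38.p14). Some genes that this rule names are not reported here.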

Additional observations from a re-analysis of the deposited data

How the results depend on the processing

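All 20 alternatives to the fit kept the calls of CFTR (log2 fold change 0.38 to 0.52), ANXA4 (0.24 to 0.32) and GATA6 (-0.36 to -0.22), with edgeR, DESeq2 or limma adjusted p of at most 0.0213, 0.0322 and 0.0409. SOX9 (0.10 to 0.17) and FOXA2 (-0.20 to -0.08) passed in none, and 3 or 4 of the members were called in each, the fourth being SLC4A2. The number of all genes called, 2222 (4499 at an unadjusted p under 0.05), was 1105 to 2583 when 1 library was left out, the lowest with siNC replicate 2 out and 1178 with siNC replicate 3 out, and 1057 at an adjusted p under 0.01. With both replicates 1 left out, chosen after seeing the data, it was 3287 (1375 higher, 1912 lower), and SLC4A2 passed at -0.14 (edgeR adjusted p = 0.00656). The split of 1005 higher and 1217 lower became 1280 and 946 with upper-quartile scaling and 1253 and 908 with library size only, which moved the median of all genes to 0.03. Of 46 genes followed through the alternatives (8 members, C1QBP and 37 others), 39 were called, and 28 of these kept the call in every alternative at 0.05, and none changed sign among the called ones.

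Whether replicate numbers pair the samples cannot be told from 3 libraries in each group. Deviations of same-numbered libraries correlated at 0.042, 0.0298 and -0.00868. For siC1QBP replicates 1 and 2 the same number gave the highest correlation, whereas siC1QBP replicate 3 correlated best with siNC replicate 2 (0.0211). With a replicate block, 3092 genes were called (1334 higher, 1758 lower), and SLC4A2 passed at -0.12 (edgeR adjusted p = 0.036). The low-count filter kept SPP1, with 12 counts, out of the test. With all genes of at least 1 count kept, all 9 members were tested and the same 3 were called, SPP1 not among them. Thinning all libraries to the smallest left ONECUT2 at 0.19 (edgeR adjusted p = 0.554).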
